A study of Mus musculus with 6 samples.

Results

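The genes of the AP-1 subunits were followed in RNA sequencing libraries of 4T1-Luc2-RFP cells, a mouse mammary carcinoma line given 2 reporter genes, for a luciferase and for a red fluorescent protein. The set was chosen by name, with earlier results of these data known. It holds the FOS genes Fos, Fosb, Fosl1 and Fosl2, the JUN genes Jun, Junb and Jund, and Atf3. All 8 were in the deposited table, among 13912 genes in all. In the tumour group, 3 libraries came from labelled cells sorted by fluorescence out of mammary gland tumours that had been started inside the milk ducts. In the cultured group, 3 libraries came from the line grown in a dish. The titles of all tumour libraries carry the word Right, and those of all cultured libraries the word NonInjected. Both groups share the line, the strain label balb/c and both reporter genes, and the age and housing of the mice are not given in the sources used here. The labels speak of sorting for the tumour group only, and no label names the animal or dish behind a library, so p-values reflect library-to-library spread alone, and that spread may be technical. Libraries are numbered 1 to 3 within each group.

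AP-1 is a transcription factor made of a pair of basic leucine zipper proteins, most often a FOS protein joined to a JUN protein. FOS proteins do not pair stably with each other and depend on a JUN partner to bind DNA, whereas JUN proteins can also pair among themselves. Fos, Fosb, Jun, Junb and Atf3 are induced within minutes by growth factors, cytokines and cell stress, whereas Fosl1, Fosl2 and Jund are as a rule induced later or expressed steadily. In breast carcinoma the FRA1 protein made from Fosl1 is known as a driver of invasion and of a mesenchymal state.

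The tumour libraries held 39851109 to 41469090 reads in genes and the cultured libraries 35448588 to 40680703. Every member had at least 237 reads in each library, so the spread between libraries, not counting error, limits the values. Macrophage markers were present in the tumour libraries. All 16 of these that were listed were higher there, and they summed to 7139 to 10590 CPM (counts scaled to a common library size), against 28.2 to 38.8 CPM in culture. For 11 of 12 listed neutrophil markers the sums were 318 to 3194 CPM against 0.950 to 1.19 CPM, and for 14 of 14 fibroblast markers 7846 to 9984 CPM against 25.7 to 54.4 CPM. Endothelial markers (10 of 10) summed to 210 to 257 CPM in the tumour libraries and 33.4 to 53.2 CPM in culture, and 3 of 10 lymphocyte markers to 4.59 to 4.92 CPM and 0.0352 to 0.0552 CPM. Markers with 0 reads in every cultured library were Ms4a7 of 16 macrophage, Retnlg, Mmp8 and Ngp of 11 neutrophil and Dpt of 14 fibroblast markers. Emcn and Cldn5 of 10 endothelial and Cd4 and Cd8a of 3 lymphocyte markers were the others. The remaining markers of each list had some cultured reads. Epithelial genes, 15 of 15, summed to 2939 to 3403 CPM in the tumour libraries and 3187 to 3953 CPM in culture, and of these 0 rose and 7 fell, with a median log2 change of -0.53. The part of host cells in the changes described here was not tested, and in such bulk samples more cells of a type and more RNA per cell cannot be told apart.

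Set against cultured cells, tumour libraries held more transcript of 5 AP-1 subunits, Fos, Fosb, Jun, Junb and Atf3, and less of 1, Fosl1. The other two, Fosl2 and Jund, did not pass the test. A change is given as the group mean in tumour less that in culture, in deposited log2 CPM, and was tested with limma (a moderated linear model) with Benjamini-Hochberg adjustment over all genes at 0.05. Of all genes, 48.2% changed, with 29.5% higher and 18.8% lower in the tumour libraries, so a change as such was common. Of the called genes 61.1% were higher as deposited, against 48.1% after centring on the library median, 52.3% with plain library totals, 35.2% after quantile normalization and 89.5% when scaled to epithelial genes. All 3 tumour values lay above all 3 cultured values for 5 members, against 34.6% of all genes, and below them for 1 member, against 25.2%. The median change was 2.15 over the 8 members and 0.08 over all genes.

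**Figure D1:**
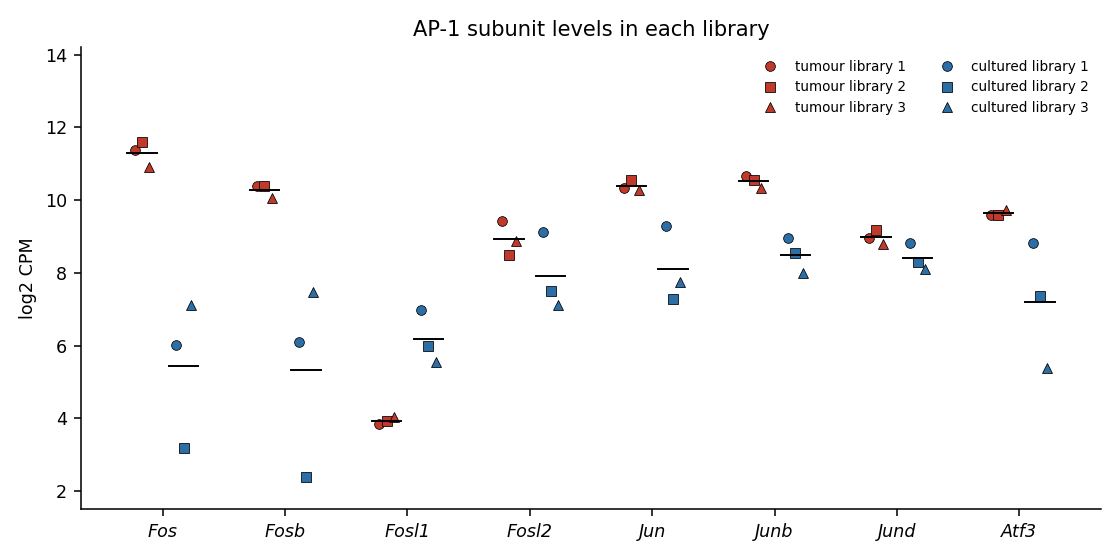
Level of each AP-1 subunit gene in log2 CPM (vertical axis) in every library, with tumour libraries in red left of cultured libraries in blue, symbols for library 1, 2 and 3, and bars at group means. Tumour symbols lie close together, Fosl1 is the gene whose tumour values lie below culture, and cultured values of Fos and Fosb span 3.96 and 5.08 log2 units.

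Fos encodes the founding FOS protein and is the textbook immediate early gene. It stood at 2680, 3136 and 1928 CPM in tumour libraries 1, 2 and 3, against 65.3, 9.04 and 140 CPM in cultured libraries 1, 2 and 3. Every tumour library was far above every cultured one, by at least 3.78 log2 units, and cultured library 2 was the lowest. The change was 5.86 (SE 0.88, limma adjusted p = 0.00105), a 58.0-fold difference of the group means on the log scale, and 1265 genes had a larger rise. It was 4.72 without cultured library 2 and 6.70 without cultured library 3.

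Fosb encodes a close relative of FOS that is also made as a shortened splice form. Its levels were 1337, 1343 and 1067 CPM in the tumour libraries, against 68.0, 5.25 and 177 CPM in the cultured libraries. The groups did not overlap, and the order of the cultured libraries was that of Fos, with library 3 highest and library 2 lowest. The change was 4.96 (SE 1.11, limma adjusted p = 0.00772), and it was 3.50 without cultured library 2 and 6.04 without cultured library 3. Within a library the log2 ratio of Fos to Fosb varied less than Fosb itself. It was 1.0, 1.22 and 0.85 in the tumour libraries and -0.06, 0.79 and -0.33 in the cultured ones, a span of 1.56 log2 units over 6 libraries, whereas Fosb itself spanned 5.08 in the cultured libraries. Each tumour ratio lay above each cultured one, with a difference of the means of 0.90. This ratio was chosen after its values were seen and was not tested.

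The stretches upstream of these genes are shown because both moved together across the 6 libraries. Promoter windows of 300 bases, from 250 before to 50 after the start site, were taken from RefSeq on GRCm38.p6, where 7 of the 8 members matched and Fosl1 did not. Capitals mark matches to TGACGT, the core of the cyclic AMP response element, or to TATAAA, the TATA box. The Fos window lies at chr12:85473640-85473939 on the plus strand and the Fosb window at chr7:19309996-19310295 on the minus strand.
Fos: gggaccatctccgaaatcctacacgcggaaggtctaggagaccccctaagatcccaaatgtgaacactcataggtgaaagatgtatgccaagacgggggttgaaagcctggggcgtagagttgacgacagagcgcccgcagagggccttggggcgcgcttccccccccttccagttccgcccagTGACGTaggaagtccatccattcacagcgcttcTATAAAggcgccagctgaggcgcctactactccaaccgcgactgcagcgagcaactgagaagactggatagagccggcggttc
Fosb: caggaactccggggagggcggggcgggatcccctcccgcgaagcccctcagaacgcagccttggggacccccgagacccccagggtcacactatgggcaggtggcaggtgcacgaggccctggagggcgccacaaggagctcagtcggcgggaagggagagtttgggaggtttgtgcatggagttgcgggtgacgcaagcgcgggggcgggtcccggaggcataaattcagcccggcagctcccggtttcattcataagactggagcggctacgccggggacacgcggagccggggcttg
The Fos window held TGACGT 66 bases and TATAAA 33 bases upstream of the start, both on the gene's own strand, while no motif searched was found in the Fosb window. Both strands were searched, and of 32851 mouse promoter windows 7.5% held TGACGT and 13.6% held TATAAA. The AP-1 site TGACTCA was found in 5.2% of windows and in none of the 7 member windows. The Jund window, which ends at chr8:70697788, does not reach the start of Jund in the GENCODE M21 annotation, at 70698949. A match is a run of letters and says nothing of binding, and the absence of one says only that these letters are not in the window.

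Fosl1, the gene of FRA1, went the other way. It stood at 14.4, 15.3 and 16.3 CPM in tumour libraries, against 127, 63.3 and 47.1 CPM in cultured libraries. The tumour values were nearly alike and all lay below the lowest cultured value, by 1.53 log2 units. The change was -2.24 (SE 0.34, limma adjusted p = 0.00111), a level 4.72-fold lower in the tumour libraries, and 142 genes had a larger fall. An exon of Fosl1 overlaps an exon of Ccdc85b on the opposite strand, and whether strand was used in counting is not given in the sources used here. The change of Ccdc85b was -0.82, with an SE of 0.15 (limma adjusted p = 0.00342).

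Fosl2, the gene of FRA2, had 686, 362 and 472 CPM in the tumour libraries and 555, 180 and 140 CPM in the cultured libraries. The groups overlapped, since cultured library 1 lay above tumour libraries 2 and 3. The change was 1.02 (SE 0.50, limma adjusted p = 0.130). Without cultured library 1 it was 1.62 (limma adjusted p = 0.00571), and when libraries were scaled to epithelial genes it was 1.54 (limma adjusted p = 0.0306). Among the tumour libraries Fosl2 was lowest in library 2, where neutrophil markers summed to 318 CPM against 3194 and 1465 CPM in libraries 1 and 3. Fos, Fosb, Jun and Jund had their highest tumour values in that same library 2, Fosb narrowly (1343 against 1337 CPM in library 1). Fosl2 and Junb were highest in tumour library 1, and Fosl1 and Atf3 in tumour library 3. Tumour library 2 also held the lowest sums of macrophage, fibroblast, endothelial and lymphocyte markers. Its sum of epithelial genes was the highest, at 3403 CPM against 2939 and 3387 CPM in libraries 1 and 3. Whether these orders are linked was not tested.

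Of the JUN genes, Jun encodes the main partner of FOS and can activate its own promoter. It stood at 1277, 1492 and 1249 CPM in the tumour libraries, against 623, 154 and 213 CPM in the cultured libraries. The groups did not overlap, and cultured library 1 was the closest to the tumour values. The change was 2.29 (SE 0.47, limma adjusted p = 0.00515). It was 2.88 without cultured library 1 and 1.87 without cultured library 2.

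Junb encodes a JUN protein that activates transcription less strongly and restrains cell division in many cells. Its values were 1608, 1509 and 1291 CPM in tumour libraries and 496, 372 and 256 CPM in cultured libraries, with no overlap. The change was 2.02 (SE 0.26, limma adjusted p = 0.000471), the smallest adjusted p of the 8 genes, and between 1.77 and 2.24 whichever library was left out. Junb shares exon sequence with Prdx2 on the opposite strand, whose change was 0.22 (SE 0.24, limma adjusted p = 0.482). Jun and Jund overlap the antisense genes Junos and Gm11175, which were not analysed here, so reads of each pair may be mixed. Jund, the steadily expressed JUN gene, had 495, 582 and 441 CPM in tumour libraries and 453, 315 and 277 CPM in cultured libraries. Cultured library 1 lay above tumour library 3, so the groups overlapped. The change of Jund was 0.56 (SE 0.22, limma adjusted p = 0.0712). It passed without cultured library 1, at 0.77 (limma adjusted p = 0.0174), and when scaled to epithelial genes, at 1.08 (limma adjusted p = 0.00684).

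The Jun window, at chr4:95052173-95052472 on the minus strand, is shown for the element by which AP-1 is known to act on this gene. Capitals mark a match to TGACNTCA.
Jun: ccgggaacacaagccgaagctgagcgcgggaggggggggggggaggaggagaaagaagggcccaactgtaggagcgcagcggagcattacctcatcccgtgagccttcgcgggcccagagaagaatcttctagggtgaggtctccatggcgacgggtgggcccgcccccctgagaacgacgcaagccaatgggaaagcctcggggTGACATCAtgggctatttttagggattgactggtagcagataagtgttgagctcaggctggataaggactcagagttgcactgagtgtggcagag
The match, TGACATCA, lay 45 bases upstream of the start on the gene's strand. Jun was 1 of 7 members with this motif on either strand, against 8.8% of all windows. Junb held TATAAA at its RefSeq start site, which lies upstream of its start in the GENCODE M21 annotation.

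Atf3 encodes a stress-induced partner of JUN proteins that, as a pair with itself, represses transcription. It stood at 777, 778 and 850 CPM in the tumour libraries, against 449, 166 and 41.7 CPM in the cultured libraries. The tumour values were nearly equal, while the cultured ones spanned 10.8-fold with library 1 highest and library 3 lowest. This order differed from that of Fos and Fosb, whose highest cultured value was in library 3. The change was 2.46 (SE 0.73, limma adjusted p = 0.0264), with no overlap. The call was lost without tumour library 1, 2 or 3 (limma adjusted p = 0.0632, 0.0724 and 0.0728) and without cultured library 2 (0.0583). The change was 1.55 (limma adjusted p = 0.0119) without cultured library 3 and 3.27 without cultured library 1. The Atf3 window, at chr1:191183284-191183583 on the minus strand, is shown for its match to TGACGT on the opposite strand, in capitals.
Atf3: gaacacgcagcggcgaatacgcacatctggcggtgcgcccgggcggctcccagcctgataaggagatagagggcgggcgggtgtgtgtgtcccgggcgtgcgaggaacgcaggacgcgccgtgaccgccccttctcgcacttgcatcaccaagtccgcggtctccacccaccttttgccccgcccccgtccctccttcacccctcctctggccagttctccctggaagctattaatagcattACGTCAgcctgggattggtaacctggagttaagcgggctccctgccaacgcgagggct
That match began 8 bases upstream of the listed start, and Fos and Atf3 were the members that held this motif.

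**Figure D2:**
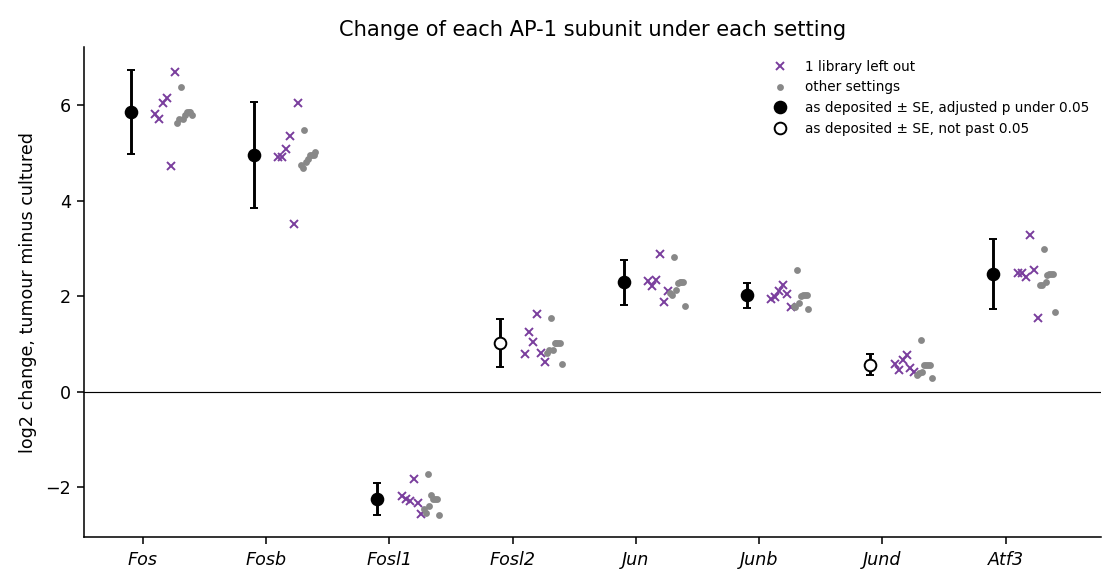
Change of each AP-1 subunit gene (vertical axis, log2, tumour minus cultured): black or open circles with SE bars give the deposited values, crosses the fits with 1 library left out and grey dots the other settings. All settings, some of which could not alter it, kept the direction of each gene. Fosl1 alone lies below 0, and the crosses of Fosb run from 3.50 to 6.04.

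The make-up of the subunit pool was compared per length, as CPM per kilobase of exon, since long transcripts collect more reads. Length was counted over all annotated exons of a gene, joined. The pool of 8 genes summed to 3188, 3427 and 2659 CPM per kilobase in the tumour libraries and 1049, 530 and 490 CPM per kilobase in the cultured ones, a 4.48-fold difference of the means. Fos made up 35.2% ± 4.07 of this pool in tumour libraries and 5.19% ± 6.14 in cultured libraries (SD, n = 3 each). In cultured cells the largest part was Jund, with 9.81% ± 0.458 in tumour libraries against 31.8% ± 5.19 in culture. Fosl1 made up 0.248% ± 0.0467 in tumour libraries and 5.51% ± 0.678 in culture, and Fosb 6.47% ± 0.224 and 2.33% ± 3.03. Fosl2 made up 1.72% ± 0.574 in tumour libraries and 3.98% ± 1.32 in culture. The 4 FOS genes together held 43.6% ± 3.73 of the pool in tumour libraries and 17% ± 7.88 in culture, and the 3 JUN genes 44.2% ± 1.44 and 70.2% ± 5.08. A share can fall while the level rises. The JUN genes summed to 1362 ± 131 CPM per kilobase in tumour libraries and 475 ± 182 in culture.

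None of these shares overlapped between the groups, and the closest was Fosb, whose lowest tumour share, 6.28%, lay just above its highest cultured share, 5.79%. How often such shares lie apart in other gene sets was not worked out. An exact two-sided permutation test gave p = 0.1 for the shares of Fos, Fosb, Fosl1, Fosl2, Jund and both families, the smallest value that 3 against 3 libraries allow (0.143 adjusted over 10 shares). The shares of Jun, 13.6% ± 1.08 in tumour libraries and 13.8% ± 4.75 in culture (exact permutation p = 0.9), of Junb, 20.7% ± 1.43 and 24.6% ± 5.24 (exact permutation p = 0.3), and of Atf3, 12.2% ± 2.29 and 12.8% ± 8.10 (exact permutation p = 1), overlapped between the groups.

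**Figure D3:**
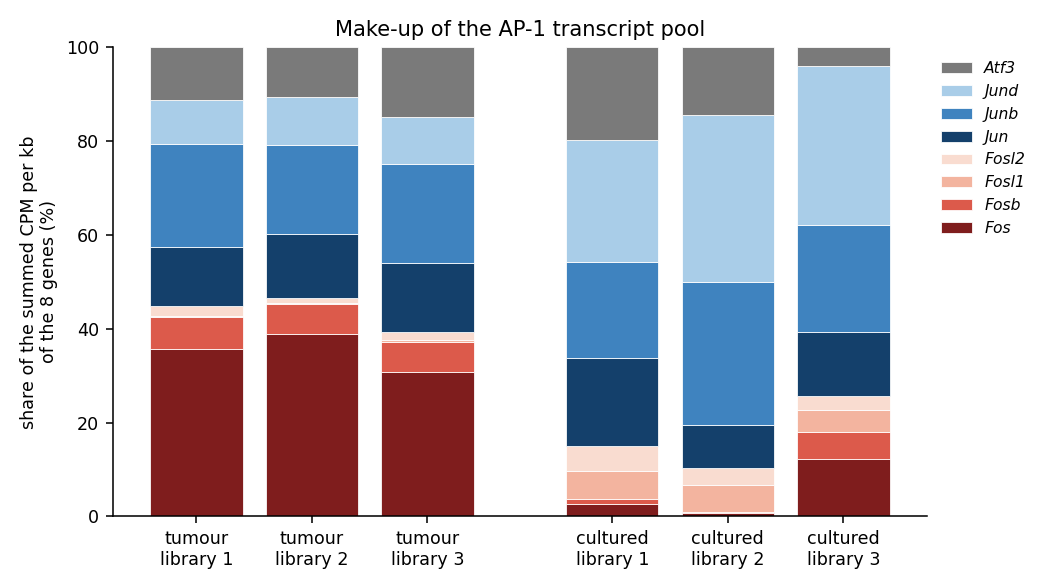
Share of each gene in the summed CPM per kilobase of exon of the 8 AP-1 subunit genes (vertical axis, percent) in each tumour library and, to the right, each cultured library. Fos takes 30.8% to 38.9% of the tumour bars and 0.725% to 12.2% of the cultured bars, where Jund is the largest part.

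Ordered by CPM per kilobase, the tumour libraries ran Fos, Junb, Jun, Atf3, Jund, Fosb, Fosl2 and Fosl1, with means of 1098, 639, 420, 372, 304, 200, 52.3 and 7.55 CPM per kilobase. Neighbours in this order did not overlap in range except Jun and Atf3, which changed places in tumour library 3. In culture the order was Jund, Junb, Jun, Atf3, Fosl1, Fos, Fosl2 and Fosb, with means of 209, 163, 104, 102, 38.9, 30.4, 30.1 and 13.4 CPM per kilobase, and every neighbour overlapped the next. Jund ranked 1 and Junb 2 in each cultured library, whereas Fos ranked 7, 7 and 4 there and 1 in each tumour library. Fosl1 ranked 8 in each tumour library and 5, 5 and 6 in culture. These ranks and ranges were taken with the joined exon length. With the longest transcript as length, the mean tumour share was 9.22% for Fosb and 8.48% for Jund, the reverse order. In culture it was 5.25% for Fosl2 and 5.12% for Fos, also reversed, and 28.3% for Jund and 27.9% for Junb, nearly equal.

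Ratios between members within a library do not depend on how libraries were scaled to each other. Fos exceeded Fosl1 by 7.54, 7.68 and 6.88 log2 units of CPM in the tumour libraries, against -0.95, -2.81 and 1.58 in the cultured libraries. The groups were thus apart, and the mean difference between them was 8.10 log2 units (exact permutation p = 0.1, the smallest possible). The ratio of Fos to Jun was 1.07, 1.07 and 0.63 in the tumour libraries and -3.25, -4.09 and -0.60 in culture, so Fos had a higher CPM than Jun in each tumour library and fewer in each cultured one. The ratio of Fosb to Fosl2 was 0.96, 1.89 and 1.18 in tumour libraries and -3.03, -5.10 and 0.33 in culture. Junb over Jund was tight in both groups, at 1.70, 1.37 and 1.55 against 0.13, 0.24 and -0.11. Fosl1 over Fosl2 was -5.58, -4.56 and -4.85 in tumour libraries and -2.13, -1.51 and -1.58 in culture. In none of the 5 ratios did the groups overlap, and each gave an exact permutation p of 0.1, also when adjusted over the 5. Groups apart were common among single genes, with 34.6% of all genes above and 25.2% below in the tumour libraries. How often ratios of other gene pairs lie apart was not worked out.

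**Figure D4:**
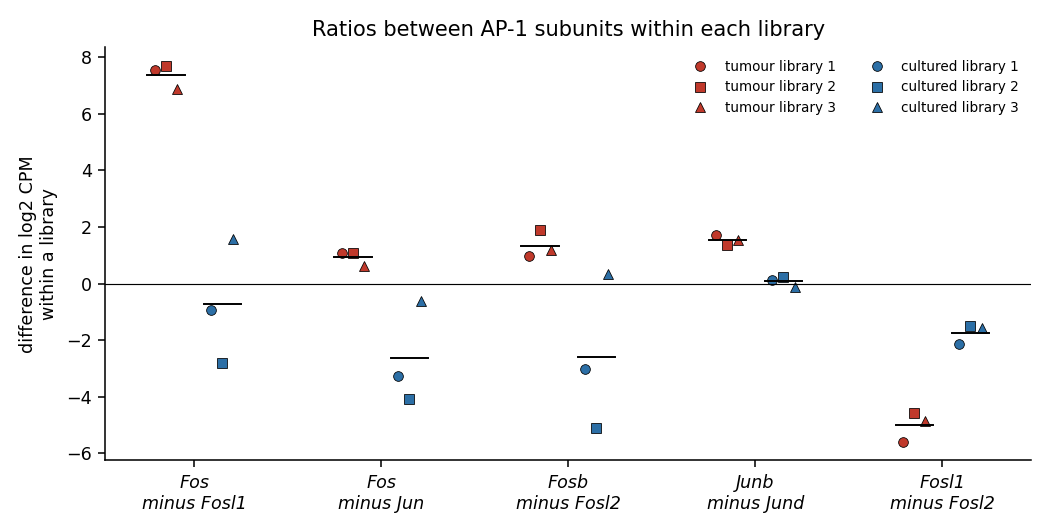
Difference in log2 CPM between pairs of AP-1 subunit genes within a library (vertical axis), tumour libraries in red left of cultured libraries in blue, with bars at group means. Fos minus Fosl1 lies at 6.88 to 7.68 in the tumour libraries and at -2.81 to 1.58 in culture, and the spread in culture is smallest for Junb minus Jund.

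All 8 members varied more between cultured than between tumour libraries. Their SD on the log2 scale was 0.07 to 0.46 in the tumour group and 0.37 to 2.62 in the cultured group. A larger SD in culture was also found for 81.1% of all genes, at a median SD of 0.16 in the tumour group and 0.36 in the cultured group. Cultured library 1 held the highest cultured value of Fosl1, Fosl2, Jun, Junb, Jund and Atf3, with deviations from the cultured mean of 0.41 to 1.62 log2 units, and library 3 that of Fos and Fosb, with 1.69 and 2.15. Profiles over 6 libraries, each centred on its own mean, were compared by their root mean square distance. The closest members were Jun and Junb (0.496 log2 units), Fos and Fosb (0.571) and Fosl2 and Jund (0.573). The farthest were Fos and Fosl1 (4.25).

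By the same distance, the genes of the table closest to Fos, among 9049 that have a full gene name and a mean of at least 4 log2 CPM in either group, were Klf2, Tnfaip8l2 and Zfp36, at 0.872, 0.880 and 0.889 log2 units. Those closest to Fosb were Tmsb4x, Mmp3 and Havcr2, at 1.09 to 1.11. Fosl1 lay near Mthfd2, a mitochondrial folate enzyme gene, and Rpp38 and Pkia, at 0.169 to 0.195. Fosl2 was nearest to Spty2d1, Slc31a2 and Nfkbie (0.222 to 0.235) and Jun to Adamts4, Nfkbia and Tapbpl (0.251 to 0.366). Junb was nearest to Trp53inp2, Parp9 and Pcolce (0.135 to 0.153), Jund to D8Ertd82e, Adgrg6 and Palld (0.043 to 0.109), and Atf3 to Cxcl10, Irf1 and Bcl3 (0.352 to 0.450). A small distance is a likeness over these 6 libraries only.

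The members differ in gene structure. In GENCODE M21 on GRCm38 the longest transcripts of Jun, Junb and Jund have 1 exon, and those of the FOS genes and Atf3 have 4. Fos lies on chromosome 12 from 85473890 to 85477273, Fosb on chromosome 7 from 19302696 to 19310051, Fosl1 on chromosome 19 from 5447547 to 5455946 and Fosl2 on chromosome 5 from 32135801 to 32157842. Jun lies on chromosome 4 from 95049034 to 95052222, Junb on chromosome 8 from 84974484 to 84978718, Jund on chromosome 8 from 70698949 to 70700616 and Atf3 on chromosome 1 from 191170296 to 191218039. All are annotated as protein-coding. AU-rich elements in the 3′ untranslated region are known to shorten the life of immediate early transcripts. The pentamer ATTTA was found in the longest annotated 3′ untranslated region of 8 of 8 members and of 70.6% of 12816 genes, and TATTTAT in 7 of 8 and 30.2%. Per kilobase the members held 0.844 copies of TATTTAT and all genes 0.269. The nonamer TTATTTATT was found in 2 members, Fos and Fosl2, and in 8.2% of genes, and these sites are shown with their flanks, the nonamer in capitals, from chr12:85477103-85477132 for Fos and chr5:32156871-32156900 for Fosl2, both on the plus strand.
Fos: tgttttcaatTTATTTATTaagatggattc
Fosl2: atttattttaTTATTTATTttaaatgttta
Of these genes Fos rose, and Fosl2 did not pass the test.

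Among 11 tested genes of 12 listed as further AP-1 and basic leucine zipper partners, 6 rose and 0 fell, with a median change of 0.98. Of all genes 29.5% rose and 18.8% fell. After centring on the library median 6 of the list rose and 2 fell, and after quantile normalization 6 rose and 1 fell. Maf stood at 43.9 ± 13.9 CPM in tumour libraries and 0.178 ± 0.154 CPM in culture (SD, n = 3 each). Batf2 stood at 14.6 ± 1.76 CPM in tumour libraries, with 9 reads in culture. Batf, a partner of JUN proteins in immune cells, had 676 reads in the tumour libraries and 2 in culture, a ratio of 359 (95% counting interval 99.1 to 2974). The change of Maff was 1.57 (limma adjusted p = 0.00371) and that of Mafk 0.98 (limma adjusted p = 0.0107). Atf2, a partner of JUN proteins that is controlled mainly by phosphorylation, had a change of -0.12 (limma adjusted p = 0.536), Atf7 of -0.14 and Jdp2, a repressor that binds JUN proteins, of 0.57 (limma adjusted p = 0.414). Macrophage markers summed to 7139 CPM or more in each tumour library, and their part in these changes was not tested.

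Of 18 tested kinases and factors that act on AP-1 genes or proteins, 6 rose and 0 fell, with a median change of 0.20. This share is close to the 29.5% of all genes that rose. By the largest change these were Mef2c (4.12, limma adjusted p = 9.84e-06), Mapk3, which encodes ERK1 (1.31, SE 0.15, limma adjusted p = 0.000235), Mef2a (0.91, limma adjusted p = 0.0352) and Elk4, a partner of serum response factor (0.71, limma adjusted p = 0.019). Mef2a did not pass in 5 of 15 alternatives (limma adjusted p = 0.0607 to 0.114) and Elk4 in 4 (limma adjusted p = 0.052 to 0.0914). After centring on the library median 3 rose and 3 fell, and with plain library totals 4 rose and 3 fell. Without tumour library 1, and likewise without tumour library 3, 3 rose and 0 fell. The JNK genes Mapk8 and Mapk9, whose products phosphorylate JUN, had changes of 0.01 and 0.23 and did not pass, nor did Srf at 0.18.

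Immediate early genes outside AP-1 rose in 16 of 20 cases and fell in 1, with a median change of 3.32. The shares over all genes were 29.5% and 18.8%. Egr1, a zinc finger factor induced alongside Fos, changed by 6.53 with an SE of 0.84 (limma adjusted p = 0.000456), and Egr2 by 6.31 (SE 0.62). Btg2, an inhibitor of cell division, had a change of 5.51 (SE 0.57), and Zfp36, whose protein binds AU-rich elements and speeds the decay of such transcripts, 5.36 (SE 0.32). The exception that fell was Myc, and Ier3, Cyr61 and Ctgf did not pass. Not every such gene followed Fos among the cultured libraries. Egr1 stood at 4.80, 1.46 and 1.54 log2 CPM in cultured libraries 1, 2 and 3, and Fos at 6.03, 3.18 and 7.13. Genes of this kind are also known to be induced while tissue is taken apart for sorting, and the labels mention sorting for the tumour group alone, so sorting and growth in the gland cannot be told apart in this design.

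Of 20 genes reported as AP-1 targets in carcinoma or stroma, 15 rose and 1 fell, with a median change of 2.71. Over all genes 29.5% rose and 18.8% fell. The largest changes were those of Il1b (10.38, SE 0.59), Il6 (9.48, from 9 cultured reads), Ccl2 (7.65, SE 1.11) and Mmp13, a collagenase (6.97, SE 0.32). Il6 had 0 reads in cultured library 3, and its fitted change depends on the added count. On the log2(CPM + 1) scale it was 4.96, below Mmp13 at 6.57 and Ccl2 at 5.90. Others, which carcinoma cells in culture also expressed, were Plau, the urokinase gene, at 720 ± 143 CPM in tumour libraries and 88.1 ± 29.9 CPM in culture, and Cd44 at 1293 ± 175 and 568 ± 131 CPM (SD, n = 3 each). Axl, a receptor kinase linked to FRA1 in breast carcinoma, had a change of -0.68 (limma adjusted p = 0.0464), which did not pass in 6 of 15 alternatives. Ccnd1, Hbegf, Lif and Ezr did not pass. These lists were written with earlier results of these data known, so their counts describe the libraries and are no independent support for a direction.

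**Figure D5:**
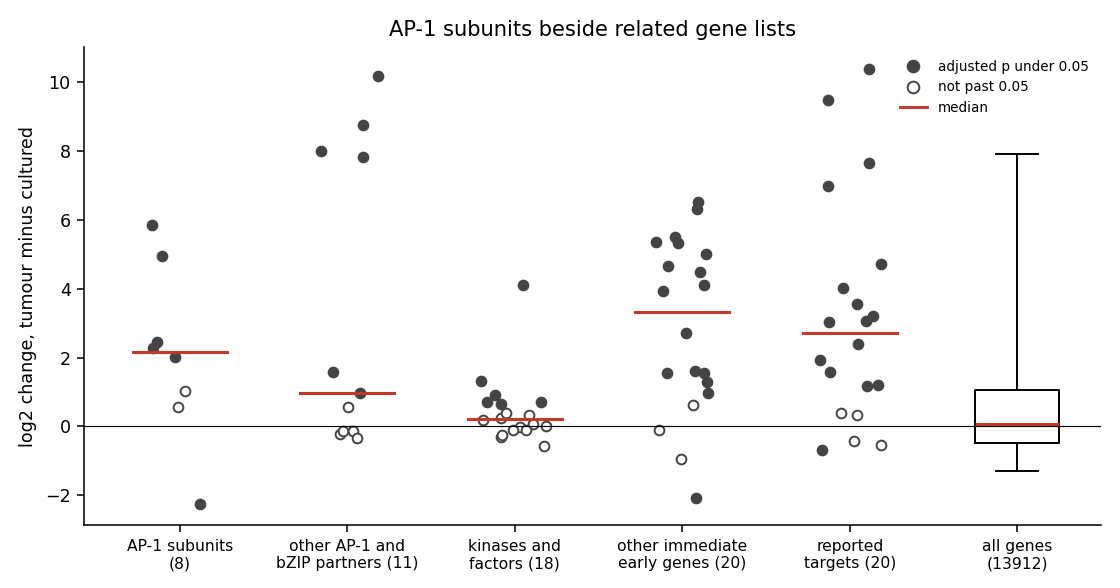
Change of each gene (vertical axis, log2, tumour minus cultured) for the 8 AP-1 subunits and related gene lists, filled where the adjusted p was under 0.05, with red lines at medians. The box at the right gives the quartiles of all 13912 genes with whiskers at percentiles 5 and 95, and the list of kinases and factors, at a median of 0.20, lies nearest to it.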

How the data were processed

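Per the labels' protocols, RNeasy columns gave the RNA and a TruSeq kit the libraries. The submitters' processing notes name HISAT, HTSeq, limma and the mm10 build without versions. The authors deposited log2 CPM values in the voom form, with 0.5 reads added and TMM-scaled library totals. Solving that form for reads gave whole numbers within 0.01 in 100% of values. The gene with the fewest reads over the 6 libraries had 61, so genes with few reads appear to have been left out. By what rule was not established, and all 8 members were kept.

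Groups were tested on these values by limma 3.58.1 under R 4.3.3 (lmFit, then eBayes with a variance trend), two-sided, after testing the fit on simulated data. No count model was run. Shares and ratios were compared by exact permutation in SciPy 1.17.1, with exon lengths from GENCODE M21. Members and gene lists were chosen with earlier results of these data known. Beside the 8 members, the text names up to 4 called genes per list with the largest change, further list genes as examples chosen after their values were seen, and the 3 nearest profiles per member. The values of 1 listed gene are not reported here. Alternatives covered scaling, pseudocount, a low-value filter, the variance model and leaving out each library. The groups have no replicate number in common, and no libraries were paired.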

Additional observations from a re-analysis of the deposited data

How the results depend on the processing

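The direction of all 8 members was the same in each of 15 alternatives, and Fos, Fosb, Fosl1, Jun and Junb were called in all of them. The low-value filter and some variance models leave each change as it was, so they could not alter a direction. Nor could leaving out 1 library, for members whose groups did not overlap. The number of members that rose lay between 4 and 7 and the number that fell was 1. Scaling moved the median change of all genes from 0.08 as deposited to -0.14 with centring, -0.07 with plain totals, -0.32 with quantile normalization and 0.60 with scaling to epithelial genes. Centring, plain totals and scaling to epithelial genes shift all genes of a library alike. A change relative to the median of all genes therefore could not differ among them, and was 5.78 for Fos and -2.32 for Fosl1. With quantile normalization it was 6.02 and -2.22. The change of Fosl1 itself was -2.24 as deposited, -2.54 with quantile normalization and -1.72 when scaled to epithelial genes. That of Fos was 5.86, 5.7 and 6.38. Genes lower in tumour libraries numbered 2612 as deposited, 5513 after quantile normalization, 698 when scaled to epithelial genes and 1520 to 3301 with 1 library left out. Genes higher numbered 3301 to 4625 and genes called 4821 to 7926 with 1 library left out.

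Scaled to epithelial genes, Fosl2 (1.54) and Jund (1.08) also passed. With 1 library left out, the change of Atf3 was 1.55 to 3.27, that of Fosl2 0.63 to 1.62 and that of Jund 0.41 to 0.77. The difference in share, tumour minus cultured, was near 0 for Jun (-0.150 points) and Atf3 (-0.546 points) and changed sign with 1 library left out, at -2.49 to 2.26 points for Jun and -4.96 to 2.995 points for Atf3. Other shares and the ratios kept their sign. Apart from the share of Junb, the groups of these did not overlap, so leaving out 1 library could not change it. Of 585 refits of other named genes, 24 lost and 10 gained a call. The causes were not tested.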
